A study of Mus musculus with 20 samples.

Results

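Injured dorsal epidermis taken on day 4 of imiquimod treatment was compared directly with injured epidermis taken on day 8, after recovery from imiquimod. The comparison rests on 8 of the 20 arrays of the series, chosen by their labels: 4 of injured skin on day 4 and 4 of injured recovery skin. Each set of 4 holds 2 arrays of Grhl3 wild-type (WT) mice and 2 of Grhl3 conditional knockout (cKO) mice. All mice are labelled as strain C57B6, and the labels of both genotypes name Krt14cre, a Cre recombinase driven by the keratin 14 promoter, which is active in basal keratinocytes, so any loss of Grhl3 is limited to cells of that lineage. The day 4 mice are labelled female and the recovery mice male, so labelled sex, day and experiment cannot be told apart from the stage of inflammation. The sources used here give neither mouse age nor the number of animals behind an array. The labels call the replicates biological without tying them to animals or litters, so p-values measure the spread between these arrays only. The other 12 arrays (unaffected skin of both imiquimod experiments and wax-stripped skin, 4 each) are used only for context.

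Imiquimod is an agonist of Toll-like receptors. Repeated on mouse skin as a cream, it activates dendritic cells and cytokine-producing lymphocytes, and the epidermis thickens, proliferates and differentiates abnormally, as in a psoriatic plaque. When treatment ends, the infiltrate clears and keratinocytes return to ordinary differentiation, which rebuilds the cornified barrier. Grhl3 is a transcription factor of the grainyhead family that directs terminal differentiation and barrier repair in keratinocytes. RNA of whole epidermal sheets carries all of these together: a lower signal can mean fewer cells of a type or less RNA per cell, and these cannot be told apart here.

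The results are given by probe set, the set of probes on the array that reports 1 transcript, and no gene is named. The probe table of the platform pairs 21789 of the 35556 IDs with 1 gene symbol, and this pairing failed when set against the signal. Ribosomal protein genes are abundant in all cells, yet the 198 probe sets under their names ranked at a median percentile of 55 by mean signal. Olfactory receptors are not genes of the epidermis, yet their 1023 probe sets ranked nearly as high, at 52.1. The 4 probe sets under the names of the main epidermal keratins ranked higher, at 82.5. The probe set labelled Xist, the RNA that coats the inactive X chromosome of females, averaged 130 intensity units over the 8 arrays labelled female and 148 over 8 labelled male. The label Uty, a gene of the Y chromosome, averaged 2540 and 2530 in the same arrays. The label of the tissue, epidermis, could therefore not be checked against marker genes, and the IDs printed below name rows of the deposited table only.

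In 5 probe sets injured recovery skin, labelled male, lay near the arrays labelled female and away from the other arrays labelled male. These 5 were chosen because the 8 arrays labelled female (imiquimod day 4, injured and unaffected) were separated by at least 3.67 on the log2 scale from 8 arrays labelled male, those of wax-stripped skin and of unaffected skin in recovery; the next probe set had a gap of 1.04. In the clearest, the arrays labelled female read 10.9 to 13.3 intensity units and the 8 labelled male 3110 to 3870, while the 4 injured recovery arrays, labelled male, read 12 to 17.4. In the second, which runs the opposite way, injured day 4 skin read 3310 to 3740 and injured recovery skin 4500 to 4930, against 0.956 to 22.8 in the 8 arrays labelled male. The day 4 minus recovery differences of the 5 lay between -0.42 and 0.99 on the log2 scale. Injured recovery skin therefore resembled injured day 4 skin in these probe sets and differed from the unaffected recovery skin of the same label, and its part in the results below was not tested.

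Injured skin on day 4 and in recovery differed widely. Of 26310 probe sets tested, 4391 were higher on day 4 and 5954 were lower (limma, Benjamini-Hochberg adjusted p under 0.05), 16.7% and 22.6% of those tested and 39.3% together. Without regard to the test, 13.2% of probe sets had all 4 day 4 arrays above all 4 recovery arrays and 20% had them all below. Most differences were small: the median fold among the called was 1.26 for probe sets higher on day 4 and 1.35 for those lower. The strong differences were mostly on the recovery side. Only 101 probe sets (0.384%) were at least 2-fold higher on day 4, while 540 (2.05%) were at least 2-fold higher in recovery. At 4-fold the counts were 12 and 86, and at 8-fold they were 0 and 19. Folds here are on the log2(intensity + 16) scale, which understates the change of dim probe sets.

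**Figure D1:**
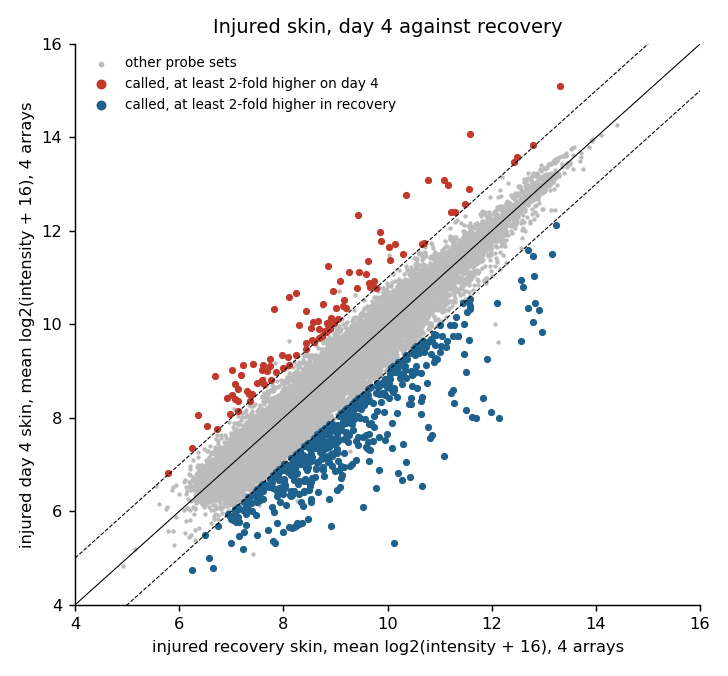
Mean log2(intensity + 16) of each of 26310 probe sets in the 4 injured recovery arrays (horizontal axis) and the 4 injured day 4 arrays (vertical axis), with the line of equality and dashed lines at 2-fold. The 540 probe sets called and at least 2-fold higher in recovery outnumber the 101 higher on day 4 and reach farther from the diagonal.

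The excess of strong differences on the recovery side kept its direction in all 20 alternative settings run, where 14.5% to 21.2% of the probe sets past 2-fold were higher on day 4 (15.8% in the values above). The balance of all called probe sets did not: 42.4% were higher on day 4 as deposited, 56.3% after quantile normalization (6402 against 4964) and 58.2% after scaling each array to its 75th percentile (6426 against 4609). The median difference over all probe sets was 0.002 on the log2 scale as deposited and 0.068 after that scaling. The total of 10345 stayed between 7855 and 9253 when each array was left out. For 93.7% of probe sets the 95% confidence interval of the difference lay within 2-fold either way, so a larger difference between the stages was limited to few probe sets at this precision.

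Bright and dim probe sets took part unequally. Divided into 4 equal bins by mean level over the 8 arrays, 26.8% of the dimmest bin were called and 47.7% of the brightest. In the dimmest bin (means of 13.3 to 146 intensity units) 5 were at least 2-fold higher on day 4 and 111 at least 2-fold higher in recovery. In the brightest (738 to 20500 units) these counts were 42 and 100. Of the 540, 112 had a day 4 mean under 81.2 units, the level below which the dimmest 25% of the table lie, and 3 had a recovery mean under it. Most of the probe sets higher in recovery were thus still above that level on day 4. At the edge of the 2-fold set, the last probe set inside it on the recovery side averaged 46.7 on day 4 and 108 in recovery, and the first outside averaged 74 and 175.

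The strongest rises on day 4 were of probe sets that had not fully come down in recovery. The largest, 10486697, read 2800 and 10400 intensity units in the WT arrays on day 4 and 4390 and 5610 in the cKO arrays. In recovery it read 814 and 282 in WT and 858 and 1040 in cKO. The 4 arrays of each stage did not overlap, which was a condition of its choice, and the fold was 7.51 (log2 difference 2.91 ± 0.47, SE; limma adjusted p = 0.00242). Unaffected skin averaged 175 ± 38.4 on day 4 and 147 ± 90.5 on day 8 (SD, n = 4 each), so the recovery mean of 750 ± 327 (SD, n = 4) stood above both.

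The second largest rise, 10490259, was of a dimmer probe set. It read 485 and 2330 in WT and 1150 and 1980 in cKO on day 4, and 328 and 211 in WT and 153 and 185 in cKO in recovery. Here WT replicate 1 on day 4 was the closest to the recovery level. The fold was 5.68 with both genotypes together (limma adjusted p = 0.00447). It was 3.88 within WT, which did not pass the test (limma adjusted p = 0.0685), and 8.3 within cKO (limma adjusted p = 0.0244). Unaffected skin read 57.2 ± 8.24 and 72.4 ± 14.4 (SD, n = 4 each) and wax-stripped skin 53.3 ± 9.99 (SD, n = 4), so this probe set was low in the arrays of unaffected and wax-stripped skin.

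The third was among the brightest of the group. It read 16200 and 24200 in WT and 14500 and 15600 in cKO on day 4. In recovery the genotypes parted, at 8560 and 6620 in WT and 1130 and 1350 in cKO. Both genotypes stood far above unaffected skin, which averaged 88 ± 15.4 and 109 ± 22.5 (SD, n = 4 each). The difference between genotypes in the day 4 minus recovery change was 2.2 on the log2 scale, with a 95% confidence interval of 1.5 to 2.89 that leaves out 0, but it did not pass the test over all probe sets (limma adjusted p = 0.152).

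Others of the 10 largest rises had come down to the level of unaffected skin or near it. The fifth read 1060 to 2010 on day 4 and 219 to 383 in recovery, against means of 277 ± 121 and 246 ± 28.3 in unaffected skin (SD, n = 4 each). The ninth averaged 560 ± 450 on day 4 and 88 ± 13.7 in recovery, with unaffected means of 133 ± 59.7 and 81.2 ± 18.4 (SD, n = 4 each). In contrast, the eighth was still at 1930 ± 874 in recovery, from 8900 ± 2100 on day 4, with unaffected means of 54.4 ± 9.87 and 38.9 ± 10.4 (SD, n = 4 each). Across the 10, with both genotypes together, folds ran from 4.32 to 7.51 and limma adjusted p values from 0.000203 to 0.00609. Within a genotype, the second and the seventh did not pass in WT (limma adjusted p = 0.0685 and 0.0885), nor the ninth in cKO (limma adjusted p = 0.0644). The recovery mean stood above both unaffected means in 9 of the 10 and between the 2 in the other.

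**Figure D2:**
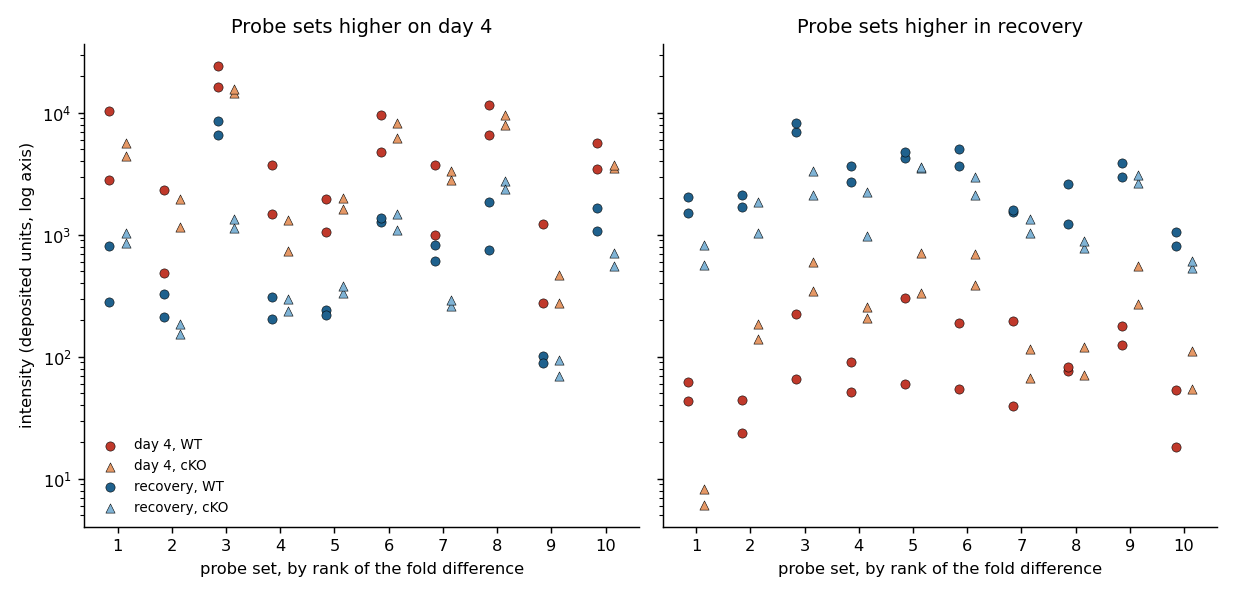
Intensity (log axis) of the 10 probe sets with the largest fold differences in each direction, one symbol per array, red and orange for injured day 4 skin and dark and light blue for injured recovery skin, circles for WT and triangles for cKO. The stages do not overlap in any of the 20, which was a condition of their choice; the folds run from 4.32 to 7.51 on the left and from 10.9 to 28 on the right.

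The brightest signal of day 4 skin also fell only in part. This probe set, picked after its values were seen, was the brightest of those tested on day 4. It read 45400 and 13800 in WT and 49800 and 49200 in cKO, so WT replicate 2 stood below the other 3. In recovery it read 11700 and 4880 in WT and 13100 and 14100 in cKO, a range that overlaps with WT replicate 2 of day 4. The difference was 3.47-fold (limma adjusted p = 0.00712). Unaffected skin averaged 128 ± 25.3 and 130 ± 16.4 (SD, n = 4 each), so recovery skin held a level far above that of unaffected areas. Wax-stripped skin read 122 and 88.2 in WT and 7860 and 9430 in cKO.

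The largest folds of day 4 against recovery were greater among probe sets lower on day 4, called losses here, than among the rises. Such folds do not measure the change from unaffected skin. The third rise averaged 88 in unaffected and 17600 in injured day 4 skin, and the second loss 3780 and 98.5. The largest loss, 10510991, was at 43.1 and 62.5 intensity units in WT and at 8.31 and 6.11 in cKO on day 4. In recovery it read 1500 and 2050 in WT and 825 and 565 in cKO, a fold of 28 (log2 difference -4.81 ± 0.15, SE; limma adjusted p = 2.09e-05). Its day 4 values lie below 81.2 units, so its fold and rank depend on the pseudocount: the log2 difference was -5.72 with a pseudocount of 1 and -3.68 with 64, where the third of these probe sets was ahead of it at -3.84. Its level was not steady in unaffected skin. Unaffected day 4 skin read 2780 and 265 in WT and 111 and 46.8 in cKO, a spread wider than that between the recovery arrays, while unaffected recovery skin read 384 to 988. What differs between the unaffected day 4 arrays in this probe set was not tested.

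The next, 10492890, had been abundant in unaffected skin and was regained in part. It read 44.4 and 23.8 in WT and 187 and 139 in cKO on day 4. In recovery it read 1690 and 2120 in WT and 1030 and 1840 in cKO, a fold of 17.5 (limma adjusted p = 0.000608; log2 difference -4.13, and -3.5 with a pseudocount of 64). Unaffected skin averaged 3780 ± 570 and 5880 ± 555 and wax-stripped skin 4590 ± 827 (SD, n = 4 each). The recovery mean of 1670 ± 461 (SD, n = 4) lay below all 3.

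The third showed another pattern, a gain in recovery more than a loss on day 4. It averaged 308 ± 224 on day 4 and 289 ± 77 and 430 ± 243 in the unaffected areas, but 5150 ± 2920 in recovery (SD, n = 4 each). Wax-stripped skin, which is repairing a physical injury, also held it at 2530 ± 256 (SD, n = 4). Within recovery skin the WT arrays read 6960 and 8250 and the cKO arrays 2100 and 3320. On day 4 the order was the opposite, with 225 and 65.5 in WT and 596 and 347 in cKO. Its fold was 17.5 (limma adjusted p = 0.00233).

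In the fourth and the sixth, the mean of injured recovery skin was above that of unaffected recovery skin in WT. In cKO it was below the unaffected mean in the fourth and near it in the sixth. The cKO arrays of the fourth varied widely, at 980 and 2220 in injured and 1040 and 3320 in unaffected recovery skin. This contrast of the genotypes was not tested. The fourth averaged 152 ± 96.9 on day 4 and 2390 ± 1110 in recovery, against 1060 ± 331 and 2240 ± 935 in the unaffected areas (SD, n = 4 each). The sixth averaged 330 ± 276 on day 4 and 3460 ± 1250 in recovery, against 1390 ± 309 (SD, n = 4) in unaffected day 4 skin and 1440 to 3470 in unaffected recovery skin. By genotype, the fourth averaged 3180 ± 651 in injured and 2300 ± 134 in unaffected WT recovery skin, and 1600 ± 879 and 2180 ± 1610 in cKO (SD, n = 2 each). The sixth averaged 4380 ± 973 and 2370 ± 10.6 in WT, and 2540 ± 582 in injured cKO recovery skin against an unaffected mean of 2460 (SD, n = 2 each). The fifth, at 353 ± 269 on day 4 and 4050 ± 587 in recovery, had been at 4740 ± 722 and 5680 ± 244 in unaffected skin (SD, n = 4 each) and so was nearly regained. Among all 10, folds ran from 10.9 to 28 and limma adjusted p values from 2.09e-05 to 0.00259. The recovery mean stood above both unaffected means in 5 of them, below both in 4 and between them in 1.

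Set beside the unaffected areas, most of the strongly different probe sets also differed at least 2-fold between injured and unaffected day 4 skin. Of the 101 higher on day 4, 76 were at least 2-fold above unaffected day 4 skin, a share of 75.2%, against 2.48% of all probe sets tested. Of the 540 higher in recovery, 308 were at least 2-fold below unaffected day 4 skin, 57% against 4.88% of all tested. Under 2-fold from unaffected day 4 skin were 21 of the 101 and 225 of the 540, against 24374 of the 26310 tested. These comparisons share the injured day 4 arrays with the comparison that chose the probe sets, which favours such a gap. They are therefore a description and carry no test. Injured recovery skin was at least 2-fold above unaffected recovery skin in 39 of the 101, and at least 2-fold below it in 83 of the 540 and above it in 81 (38.6%, 15.4% and 15%). Of all tested, 2.63% were above and 2.31% below. The labels do not tie injured to unaffected arrays. Injured and unaffected recovery skin also differed in the probe sets chosen by labelled sex, so unaffected skin may not come from the same animals.

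The 101 had come down but not to the resting level. Their median intensity was 1020 in injured day 4 skin and 395 in injured recovery skin, against 246 and 175 in unaffected skin of day 4 and day 8. In 67 of the 101 the means of both stages were above both unaffected means (66.3%, against 24.9% of all tested). With day 4 above both, recovery was between the unaffected means in 15 (14.9% against 5.46%) and below both in 8 (7.92% against 4.08%). The recovery mean was nearer to the mean of unaffected skin than to day 4 in 70 of the 101. The choice of probe sets at least 2-fold apart between the stages favours this count, and no share over all probe sets was computed.

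The 540 had returned close to the resting level as a group, while single probe sets lay on either side of it. Their median was 162 on day 4 and 488 in recovery, against 431 and 508 in unaffected skin. With day 4 below both unaffected means, recovery stood above both in 203 (37.6%, against 6.42% of all tested). With day 4 likewise below both, recovery lay between them in 111 (20.6% against 7.23%). Both stages were below both in 170, or 31.5%, near the 30% of all tested. A smaller class of 29 was within the unaffected range on day 4 and above it in recovery (5.37%, near the 4.32% of all tested). Another 26 were above it at both times and highest in recovery, 4.81% against the 24.9% of all tested above it at both. Recovery was nearer to unaffected skin than to day 4 in 470 of the 540 (87%), against 69.3% of the 101. The choice of probe sets at least 2-fold apart between the stages favours both shares, and none over all probe sets stands beside them. The 2 shares were not compared by a test.

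**Figure D3:**
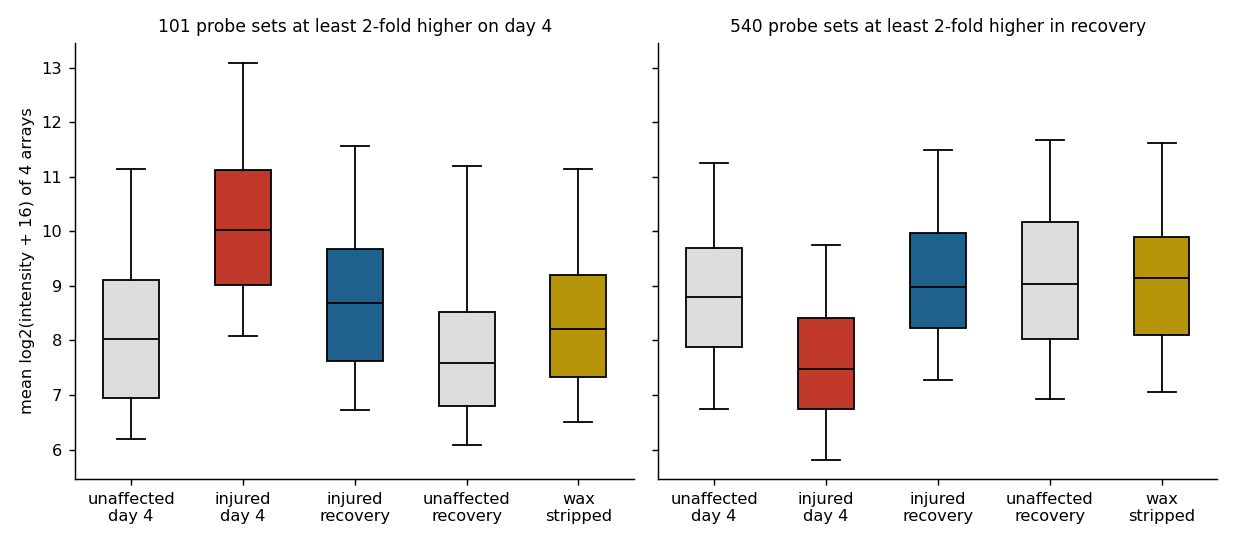
Mean log2(intensity + 16) over the 4 arrays of each condition, for the 101 probe sets at least 2-fold higher on day 4 (left) and the 540 at least 2-fold higher in recovery (right); boxes give the middle 50% of probe sets with the median and whiskers the 5th and 95th percentiles. On the left injured recovery skin (median 395 intensity units) stays above both unaffected areas (246 and 175), and on the right its median (488) lies between theirs (431 and 508).

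Probe sets gained in recovery, rather than restored, could be seen singly. The largest of the 29 averaged 338 ± 66 on day 4 and 1600 ± 161 in recovery, and in the unaffected areas 323 ± 144 and 345 ± 63.9 (SD, n = 4 each; limma adjusted p = 8.46e-05). Its recovery arrays read 1510, 1840, 1490 and 1570, and wax-stripped skin also held 1290 ± 221 (SD, n = 4). The largest of the 26 averaged 103 ± 42.4 on day 4 and 1290 ± 695 in recovery, with unaffected means of 42 ± 9.96 and 50 ± 4.12 (SD, n = 4 each; limma adjusted p = 0.000324). Its recovery arrays were 702 and 923 in WT and 2270 and 1240 in cKO. In recovery they stood 4.62-fold and 10.4-fold above day 4.

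A few probe sets were not above the unaffected range on day 4 and had a mean in recovery below the 3 other means of the imiquimod experiments. The 8 with day 4 above and recovery below both unaffected means, given earlier, are not among them. In 5 of the 101, both stages were below the unaffected range, recovery the lower (4.95%, against 30% of all tested with both below). The largest of them averaged 2290 ± 666 on day 4 and 724 ± 282 in recovery, while unaffected areas held 7120 ± 440 and 3510 ± 1910 (SD, n = 4 each; limma adjusted p = 0.000433). In another 5, day 4 was within the unaffected range and only recovery below it (4.95%, against 8.22% of all tested). The largest of these averaged 1940 ± 927 on day 4 and 477 ± 9.22 in recovery, while unaffected areas held 2320 ± 1310 and 2490 ± 2300 (SD, n = 4 each; limma adjusted p = 0.0106). The unaffected areas of this probe set varied widely between arrays.

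By median, the wax-stripped arrays lay nearer to unaffected skin than to injured day 4 skin in these probe sets. The 101 had a median of 221 in wax-stripped WT skin and 340 in wax-stripped cKO skin, against 948 and 1070 in injured day 4 skin of the same genotypes. The 540 had medians of 568 and 506 after wax stripping, against 149 and 172 in injured day 4 skin and 479 and 518 in injured recovery skin. Wax-stripped skin was also taken on day 4. These probe sets were chosen by the values of injured day 4 skin, which favours a gap between it and any other condition. No conclusion about wax-stripped skin is drawn from these medians. The genotypes of wax-stripped skin were not compared here.

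The 8 arrays fell into 2 groups by stage. Over the 26310 probe sets, 58.9% of the variance lay on the first principal component, with the day 4 arrays at 23.8 to 42.1 and the recovery arrays at -33.5 to -30.7. The second component (16%) separated the genotypes in both stages. WT arrays lay between -28.3 and -5.1 on it and cKO arrays between 7.3 and 23.

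The 2 day 4 WT arrays were the least alike of the 4 replicate pairs. The replicates of day 4 WT skin differed at least 2-fold in 259 probe sets, against 84 in day 4 cKO skin, 122 in recovery WT skin and 81 in recovery cKO skin. Among the 101 probe sets, WT replicate 1 of day 4 was the lowest of the 4 day 4 arrays in 69 and WT replicate 2 the highest in 46. Among the 540, WT replicate 2 was the lowest of the 4 in 283. WT replicate 2 thus stood farther from recovery skin than WT replicate 1 did. It also had the highest position of the 8 arrays on the first component, 42.1 against 31.6 for WT replicate 1.

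The second question was whether the stages differed alike with and without epidermal Grhl3. Within WT skin 2191 probe sets were higher and 4004 lower on day 4 (8.33% and 15.2% of those tested, 23.5% together), and 136 and 683 of them by at least 2-fold (0.517% and 2.6%). Within cKO skin 1518 were higher and 2907 lower (5.77% and 11%, 16.8% together), and 77 and 424 by at least 2-fold (0.293% and 1.61%). Both fits take the spread from all 8 injured arrays (limma adjusted p under 0.05). The WT total of 6195 became 3672 without day 4 WT replicate 2, 2619 without recovery WT replicate 1 and 2556 without recovery WT replicate 2. The cKO total of 4425 became 1593 and 335 without day 4 cKO replicate 1 or 2, and 405 and 1183 without recovery cKO replicate 1 or 2. The count of 501 past 2-fold in cKO skin became 194 without day 4 cKO replicate 2 and 237 without recovery cKO replicate 1. The larger total in WT skin is therefore no measure of a genotype difference. After quantile normalization the split was 3548 against 3501 in WT and 2359 against 2193 in cKO, and after scaling to the 75th percentile it was 3395 against 3036 and 2353 against 2029.

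The genotypes share no array, but both tests take the spread from all 8 injured arrays, so a steady probe set passes both more easily. The shares over all probe sets are therefore not those expected of probe sets called in the other genotype. Over all probe sets tested, 80.4% had the same sign in both, the background for the counts of direction that follow. Of the 683 probe sets at least 2-fold lower on day 4 in WT skin, 679 (99.4%) were also lower in cKO, of which 535 (78.3% of the 683) passed the cKO test in that direction, against the 11% of all probe sets that did so. Of the 136 higher in WT, 122 (89.7%) were higher in cKO and 73 (53.7%) passed, against 5.77%. From the other side, 341 of the 424 probe sets at least 2-fold lower in cKO (80.4%) and 61 of the 77 higher (79.2%) passed in WT, against 15.2% and 8.33% of all probe sets. In total 3151 probe sets were called in both genotypes, 9 of them in opposite directions, and 288 were at least 2-fold lower and 40 at least 2-fold higher on day 4 in both. Across probe sets, which share arrays and are no replicates of each other, the 2 differences correlated at r = 0.786 (Spearman rho = 0.777).

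**Figure D4:**
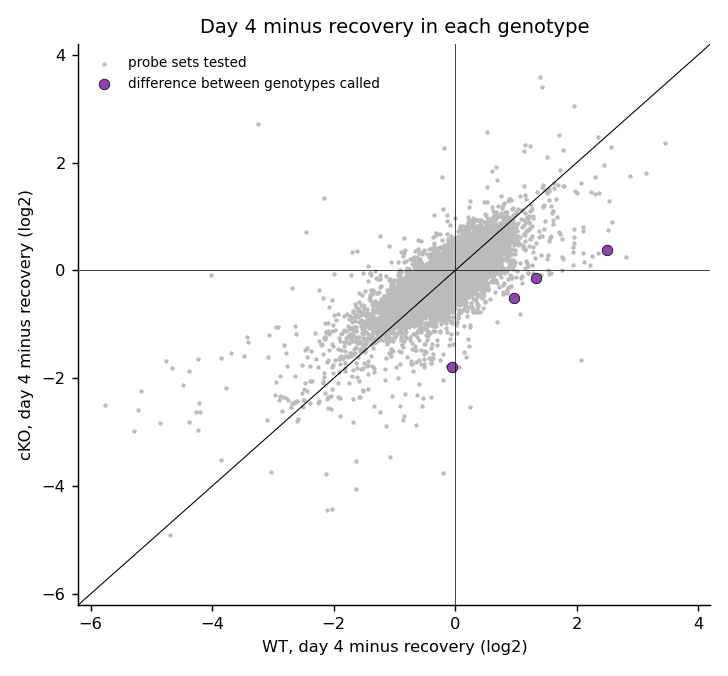
Day 4 minus recovery difference (log2) of each of 26310 probe sets in WT skin (horizontal axis) and cKO skin (vertical axis), with the line of equality; purple points are the 4 probe sets whose difference between genotypes passed the test. Most points follow the line (r = 0.786), and the strongest losses at the lower left lie mostly above it; of the 10 largest losses, none passed the test of a genotype difference.

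None of the 10 largest losses or the 10 largest rises passed the test of a difference between genotypes. Among the 10 losses the measured change was larger in WT in 9. The extremes of these probe sets lay in arrays of both genotypes. Of the 4 recovery arrays, WT replicate 2 was the highest in 10 of 10. The lowest was cKO replicate 1 in 8 and cKO replicate 2 in 2. Of the 4 day 4 arrays, WT replicate 2 was the lowest in 7 and cKO replicate 1 the highest in 8. In the third, described above as gained in recovery, the change was -5.76 in WT and -2.49 in cKO on the log2 scale. That is a difference of 3.26 with a 95% confidence interval of 1.6 to 4.93. The unadjusted interval left out 0 in 7 of the 10, but the limma adjusted p values of the difference lay between 0.317 and 0.973. Among the 10 largest rises the change was larger in WT in 5, and these adjusted p values lay between 0.152 and 0.983. For 10510991 the values were -4.7 in WT and -4.91 in cKO, with a difference of -0.22 (95% confidence interval -0.97 to 0.54).

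The test of the difference between genotypes called 4 probe sets (0.0152% of those tested; limma adjusted p under 0.05), with 1826 (6.94%) at an unadjusted p under 0.05. In the 4 the day 4 minus recovery difference was lower in cKO than in WT. The first read 136 and 128 in WT and 89 and 90.4 in cKO on day 4, and 136 and 138 in WT and 336 and 360 in cKO in recovery. WT skin differed by -0.05 between the stages on the log2 scale, and cKO skin was 3.44-fold higher in recovery (limma adjusted p of the genotype difference 0.0218). Its unaffected recovery skin averaged 174 ± 5.97 in WT and 179 ± 16.4 in cKO (SD, n = 2 each), so injured cKO recovery skin stood above it.

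In the other 3, injured WT skin was lower in recovery than on day 4, while injured cKO skin was less far below day 4 or above it. The second read 481 and 539 in WT and 507 and 496 in cKO on day 4, then 84.2 and 71.2 in WT and 417 and 350 in cKO in recovery (limma adjusted p = 0.0262). The third averaged 227 ± 5.89 in WT and 235 ± 19 in cKO on day 4, then 80.1 ± 0.616 and 260 ± 1.45 in recovery (SD, n = 2 each; limma adjusted p = 0.0262). The fourth averaged 194 ± 10.2 and 170 ± 2.91 on day 4, then 91.2 ± 6.72 in WT and 249 ± 3.26 in cKO recovery skin (SD, n = 2 each; limma adjusted p = 0.0262). Unaffected recovery skin was itself lower than unaffected day 4 skin in these 3: the third averaged 137 ± 27.7 in WT and 95 ± 15.7 in cKO on day 8, against 310 ± 25.5 and 327 ± 49.2 on day 4 (SD, n = 2 each). Injured cKO skin had the highest mean of the 4 recovery groups in all 4 probe sets.

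**Figure D5:**
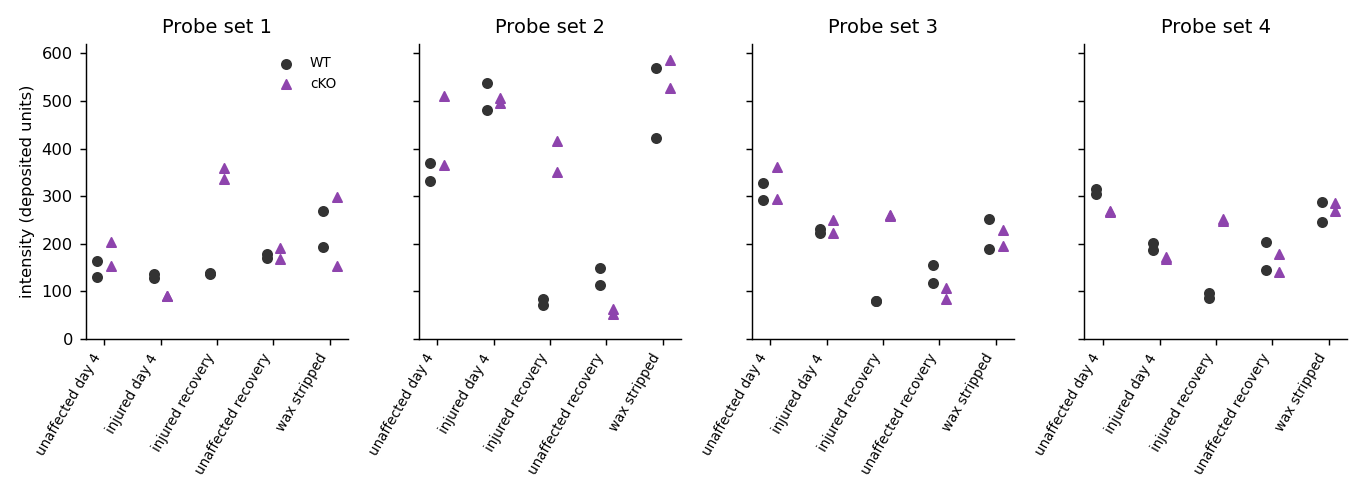
Intensity of the 4 probe sets called for a difference between genotypes, in each of the 20 arrays, by condition; circles are WT and triangles cKO. In injured recovery skin the cKO arrays lie above the WT arrays in all 4, and in the second and the third the other recovery groups are low (84.2 and 71.2 in injured WT skin in the second).

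These 4 calls depend on single arrays and on the setting. None were called without day 4 WT replicate 2, without either day 4 cKO replicate or without recovery cKO replicate 1, and the 1 called without recovery WT replicate 1, the 2 without recovery cKO replicate 2 and the 3 without recovery WT replicate 2 were other probe sets. Of the 4 called without day 4 WT replicate 1, 1 was among those described. With all 20 arrays in the fit 16 were called, 3 of them among the 4. For 91.5% of probe sets the 95% confidence interval of the genotype difference lay within 2-fold either way; the 4 called probe sets are among the rest.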

How the data were processed

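Total RNA of dispase-separated epidermis was biotin-labelled and hybridised to Gene ST arrays of Affymetrix, as the labels' protocols state. The deposited table gives linear intensity per probe set; Affymetrix Expression Console and PLIER are the tools per the submitters' processing notes, with versions and any scaling between arrays not given in the sources used here. Groups came from the sample titles. The members, lists and rules were chosen with earlier results of these data known.

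Of 35556 probe sets, 476 with values identical to another were removed, and those under the 25th percentile of mean log2(intensity + 16) over 20 arrays, which left 26310. The 8 injured arrays were fitted with limma 3.58.1 in R 4.3.3 (lmFit, eBayes): stage with genotype as a covariate (5 residual degrees of freedom), and 4 group means for the comparisons within a genotype and their difference (4 residual degrees of freedom). P-values were adjusted by Benjamini-Hochberg per comparison at 0.05. The fit was tested on simulated data. Alternatives were 2 other pseudocounts, 2 scalings, 3 filters, other eBayes settings, all 20 arrays, no genotype covariate, replicate blocks and leaving out each array. Median intensity per array lay between 169 and 200 units; arrays give no count depth, and their number limits the precision.

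The rule for names took the 10 largest differences in each direction among probe sets called, at least 2-fold different and without overlap of arrays (89 and 498 were eligible), and the 3 smallest p-values of the genotype difference; the fourth was added so that all 4 calls are shown. Class examples are the largest of their class and were chosen later. Planned gene lists and cell type markers were not used, because the IDs could not be tied to genes.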

Additional observations from a re-analysis of the deposited data

Results flagged for a closer look

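Among the 20 probe sets with the largest differences, 40 sets of 4 arrays were examined for a single array far from the other 3, and 1 was found; chance flags about 1 in 20. It was the tenth largest rise on day 4, where WT replicate 2 read 5660 intensity units and the other 3 day 4 arrays 3440, 3520 and 3740. The recovery arrays of this probe set read 1650 and 1080 in WT and 703 and 551 in cKO. The stages do not overlap with or without that array, but this was a condition of its choice.

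In 4 probe sets the day 4 minus recovery difference was not the same in the 2 genotypes by the test of the difference itself. The cKO minus WT values were -1.74, -2.11, -1.48 and -1.48 on the log2 scale, with limma adjusted p values of 0.0218, 0.0262, 0.0262 and 0.0262.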

How the results depend on the processing

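The count of 10345 probe sets that differed between the stages stayed within 1.5 times under all 20 alternatives (7855 to 11366), as did, with 434 to 740, the 641 past 2-fold. Leaving out each array gave 7855 to 9253 in the pooled comparison, 2556 to 5114 in WT, 335 to 5124 in cKO and 0 to 4 for the genotype difference. The 10 largest differences in each direction kept their direction and passed the test in the 200 fits (higher in recovery) and 198 fits (higher on day 4) that held them, with adjusted p values up to 0.0115 and 0.0214. The tenth loss, dim on day 4, went from -3.44 to -2.73 on the log2 scale with a pseudocount of 64.

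The 4 calls of the genotype difference became 14 with a pseudocount of 64, 2 with 75th percentile scaling, 7 without a filter, 7 with the filter at the 50th percentile, 13 with trend and robust settings and 16 with all 20 arrays. The 3 named for it lost the call in 31 of 56 fits, with no change of direction. The alternative by brightest probe set of a gene list was not run, since no list could be used. With the replicate number as a block the counts were 3507 in WT, 1877 in cKO and 0 for the genotype difference. Deviations of same-numbered arrays from their group means correlated at -0.115 in WT and -0.062 in cKO across probe sets. With 2 arrays a group this rests on a single deviation per stage and genotype, so it cannot decide whether the numbers are pairs. The labels do not state pairs, and the main fit used none. With the WT recovery numbers crossed, an alternative chosen after seeing the data, the pooled count was 9540 and that of the genotype difference 0. The cause of these changes was not tested. PLIER values near 0 are noisy, and the number of arrays limits all counts within a genotype.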

Other observations

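The table's row order carried a signal although its IDs did not match genes. Among the 22149 tested rows from the first ID of the probe table onward, the day 4 minus recovery differences of neighbouring rows correlated at r = 0.161, those of rows 2 apart at 0.106 and of rows 50 apart at 0.003. Among the 4161 tested rows ahead of that ID, neighbours correlated at -0.006. In these first rows 35.3% of probe sets were called and 1.15% called at least 2-fold, against 40.1% and 2.68% in the others.

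The probe set with the largest cKO minus WT difference, 5.97 on the log2 scale (95% confidence interval 0.05 to 11.88), did not pass the test (limma adjusted p = 0.714). It read 2300 and 1450 in injured WT recovery skin and 89.6 and 57.5 in injured cKO recovery skin. Single arrays were high elsewhere: 4470 against 58.5 in the 2 injured day 4 cKO replicates, 547 against 50.3 in injured day 4 WT skin, and 1030 against 51.4 in wax-stripped cKO skin. It was picked after its values were seen.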
